A study of Caenorhabditis elegans with 11 samples.

Results

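The UDP-glucuronosyltransferase genes of Caenorhabditis elegans carry the symbol ugt followed by a number. They were followed here in whole hermaphrodites that had been kept with or without males. Members were all genes with such a symbol that had a probe set of their own on the array, and a gene with several probe sets was read from the one with the highest mean over all arrays. The rule gave 64 genes, out of 17118 genes with a named probe set and 22548 probe sets tested. Of the 67 ugt genes in the RefSeq table of assembly WBcel235, all protein-coding, ugt-34, ugt-49 and ugt-65 had no probe set under their symbol alone.

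These enzymes transfer a sugar from a UDP-sugar to a small molecule, which makes the product more soluble and easier to export. In vertebrates the sugar is mostly glucuronic acid, and they form a second phase of detoxification after oxidation by cytochromes P450. In nematodes many foreign compounds, among them bacterial metabolites such as indole, are instead recovered as glucosides. The family is large in worms, many of its genes stand side by side in the genome, and the substrates of most members are not known. Xenobiotic response genes of this kind are often active in the intestine, the main digestive and storage tissue of the worm.

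All hermaphrodites measured, controls included, had the glp-1(e2141) mutation in a Notch receptor needed to keep germ line stem cells. This mutation makes worms sterile at the 25 °C used. Germ line and oocyte markers were nevertheless high in the arrays of utx-1 RNAi with males, as given below. Hermaphrodites were put on 10 cm plates with OP50 bacteria as L1 larvae and stayed there for 8 days, either as 500 hermaphrodites alone or as 250 hermaphrodites with 250 wild-type males. The males were then taken away, and RNA of 200 hermaphrodites, each a whole-worm lysate, went on 1 Affymetrix array. The plates were thus matched for the total number of worms, while the number of hermaphrodites changed together with the presence of males, and the effects of both cannot be told apart. Part of the samples were given RNAi against utx-1, which encodes a demethylase of histone H3 lysine 27, and no empty-vector control is named. The groups were glp-1 without males (3 arrays), glp-1 with males (3 arrays), utx-1 RNAi without males (3 arrays) and utx-1 RNAi with males (2 arrays, replicates 1 and 3). Replicates of a condition came from independent experiments, per the series' design text.

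All values are RMA values on the log2 scale, so a difference of 1 is a doubling of signal. Differences are given ± the standard error of a limma fit to all 11 arrays, with p-values adjusted by Benjamini-Hochberg over all 22548 probe sets, and "rose" and "fell" are kept for adjusted p-values under 0.05. Values are relative to all RNA on the array. In whole worms, fewer cells of a type and less RNA per cell cannot be told apart.

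The arrays of utx-1 RNAi with males stood apart. They correlated with the other 9 at 0.961 to 0.983 across all probe sets, against 0.986 to 0.997 among those 9. All 13 germ line and oocyte markers examined rose in them against utx-1 RNAi without males (median difference 4.64). The mean level of these markers was 7.86 to 7.91 in these arrays and 3.52 to 4.28 in the others. The 6 body muscle markers had a median difference of -0.80, and 4 fell. With males without RNAi, iff-1 (1.92) and glh-1 (0.305) of the germ line and oocyte markers rose and htp-3 (-0.34) fell. The median over those 13 was -0.04. Intestinal markers kept a mean level of 10.27 to 10.44 in all 11 arrays. Of the 12, act-5 (0.50 without and 0.44 under RNAi) and asp-1 (0.35 and 0.43) rose with males in both backgrounds. In both ges-1 fell (-0.86 and -1.25), and cpr-6 fell without RNAi (-0.415). The mean level of 7 epidermal markers was lower with males in both backgrounds. Of the 7, col-19 (-1.24) and sqt-3 (-0.64) fell without RNAi, with a median of -0.32, and their mean level was 5.08 to 5.32 without males and 4.72 to 4.94 with them. Under RNAi col-19 (-1.09), elt-3 (-0.72) and sqt-3 (-0.67) fell and nhr-23 rose (1.07), with mean levels of 5.01 to 5.12 and 4.81 to 4.93. The part of these changes in the differences of ugt genes was not tested. Of 6 sperm markers, spe-11 rose with males without RNAi (0.87) and under it (1.05), and no other passed in these comparisons. The mean level of 6 markers of male seminal fluid and male neurons was 4.78 to 4.82 in glp-1 with males and 4.85 to 4.89 without them. The target of the RNAi, utx-1, fell by 2.47 ± 0.09 without males and fell by 2.15 ± 0.10 with males at its dimmer probe set (adjusted p = 1.27e-07 and 8.47e-08, limma), where each RNAi array lay below each array without RNAi. At its brighter probe set 1.07% of the signal was left without males and 5.51% with males. The target thus stood higher in utx-1 RNAi with males than without them, by 3.28 ± 0.40 (adjusted p = 0.000114) at the brighter and by 0.32 ± 0.10 (adjusted p = 0.0476) at the dimmer probe set. Its own interaction passed at the brighter one (2.37 ± 0.54, adjusted p = 0.0179) and not at the dimmer one (0.32, adjusted p = 0.226).

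The probe sets of the members ranged from percentile 1.57 to percentile 94.8 of all mean signals, with a median at 65.9. The 8 with the most signal were those of ugt-58 (9.37), ugt-23 (9.18), ugt-25 (9.01), ugt-12 (8.33), ugt-17 (8.11), ugt-41 (8.08), ugt-62 (7.99) and ugt-1 (7.96), as means over 11 arrays. Those with the least were ugt-57 (2.66), ugt-10 (2.59), ugt-42 (2.52) and ugt-38 (2.36). Signals of different probe sets depend on their probes, so this is no order of RNA amounts. Of the 64 members, 49 lay above the median signal and 8 below the lower quartile. Among those 8 only ugt-35 was called in a comparison of males with no males. The median standard deviation within groups was 0.17 for the members and 0.13 for all probe sets above the median signal.

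In hermaphrodites without RNAi, males went with lower RNA of 16 ugt genes and higher RNA of 8. The 24 called genes are 37.5% of the family, while 11.8% of all probe sets were called in this comparison. Falls made up 25.0% of the family against 6.15% of all probe sets, and rises 12.5% against 5.65%. Among probe sets above the median signal 20.1% were called, and 23 of the 49 members there. The median difference over the 64 members was -0.15, and over all probe sets it was -0.01. More than 2-fold, 3 genes rose (by 2.01, 1.84 and 1.60) and 3 fell (-1.41, -1.32 and -1.15).

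**Figure D1:**
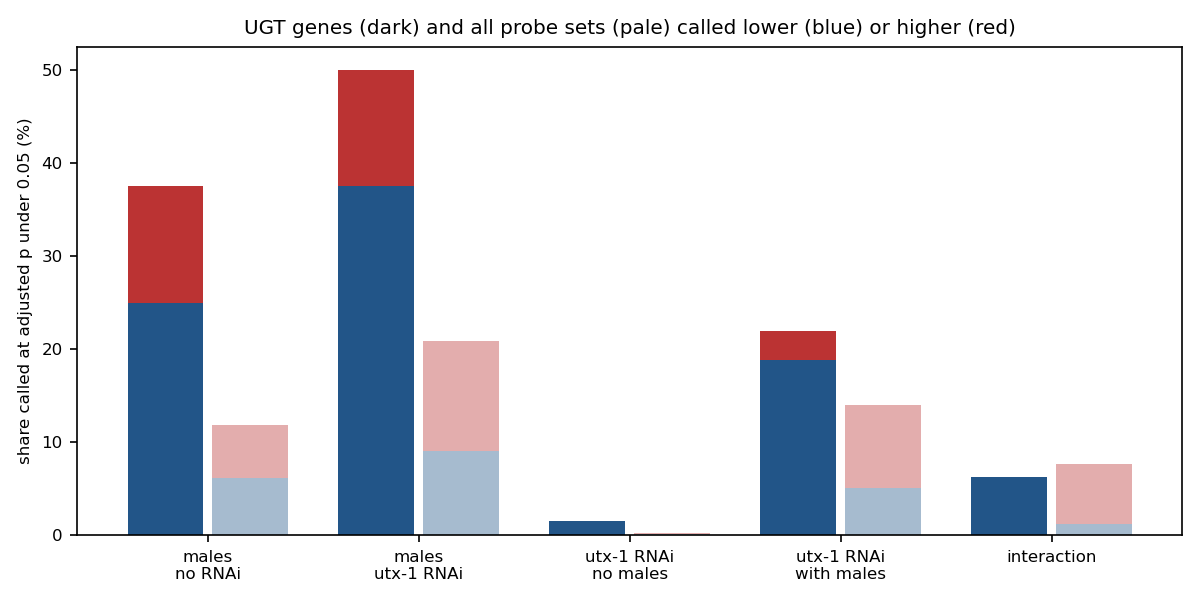
Share of the 64 UGT genes (dark bars) and of all 22548 probe sets (pale bars) past an adjusted p of 0.05 in each comparison, split into lower (blue) and higher (red), in percent. The family's share is above that of all probe sets with males without RNAi (37.5% against 11.8%) and with males under utx-1 RNAi (50% against 20.9%), and below it in the interaction (6.25% against 7.65%).

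The gene ugt-9 had the largest rise. It read 4.06, 4.0 and 4.52 in glp-1 without males and 6.01, 6.38 and 6.24 with males, so the groups were more than a whole log2 unit apart at their nearest arrays. It rose by 2.01 ± 0.15 (adjusted p = 6.1e-05, limma), a 4.04-fold change of signal. In worms ugt-16 is known as a gene that responds to the anthelmintic albendazole. It read 3.15, 3.31 and 3.01 without males against 4.85, 4.88 and 5.26 with males and rose by 1.84 ± 0.12 (adjusted p = 1.97e-05). The values of ugt-33 were 3.91, 4.17 and 3.98 without males and 5.36, 5.78 and 5.70 with them, a rise of 1.60 ± 0.14 (adjusted p = 0.000167). For all 3 genes each array with males lay above each array without. Their group means without males lay between 3.16 and 4.19, where the medians of whole arrays were 3.78 to 3.98.

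The other 5 rises were smaller and lay close together. Those of ugt-26 (0.57), ugt-18 (0.56), ugt-29 (0.56), ugt-48 (0.49) and ugt-31 (0.49) each amounted to 1.40-fold to 1.49-fold. Of these, ugt-18 read 3.45, 3.44 and 3.66 without males and 4.12, 4.02 and 4.11 with males. Only ugt-31 overlapped between groups, since replicate 2 without males read 5.66 and replicate 2 with males 5.62. The 23 other called members did not overlap between groups. Over the whole family 37 of 64 members did not overlap, beside 31.3% of all probe sets in this comparison. The calls of ugt-26, ugt-31 and ugt-48 were lost in 5, 6 and 5 of the 17 or 18 alternative settings run on each. Without replicate 3 of either group, or without replicate 1 with males, 5 rises were called in place of 8. Over all probe sets the rises then numbered 1139 (without replicate 3 of the group without males), 804 and 1001, in place of 1275.

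Among the falls, ugt-63 had the largest difference. It read 7.99, 8.08 and 7.84 without males and 6.56, 6.5 and 6.61 with males. It fell by 1.41 ± 0.09 (adjusted p = 1.97e-05), which left 0.375 of the signal. The arrays of ugt-66 were 7.56, 7.08 and 6.74 without males and 5.79, 5.88 and 5.75 with them. It fell by 1.32 ± 0.19 (adjusted p = 0.00202), and the group without males was the more scattered of the pair. Likewise ugt-32 read 7.09, 6.88 and 6.22 against 5.59, 5.41 and 5.75 and fell by 1.15 ± 0.19 (adjusted p = 0.0033). In both ugt-66 and ugt-32, replicate 1 without males was the highest array of all.

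Next came ugt-50, which fell by 0.93 ± 0.18 (adjusted p = 0.00695), and ugt-14, which fell by 0.90 ± 0.15 (adjusted p = 0.00343). The gene ugt-23 fell by 0.77 ± 0.12 (adjusted p = 0.00238) on a bright probe set, at 9.56, 9.29 and 9.54 without males and 8.80, 8.81 and 8.47 with males. Smaller falls were those of ugt-41 (-0.76), ugt-21 (-0.66), ugt-46 (-0.61), ugt-61 (-0.57), ugt-44 (-0.56) and ugt-2 (-0.56). The remaining 4 were ugt-11 (-0.55), which is known as a target of the stress regulator SKN-1, ugt-4 (-0.45), ugt-60 (-0.41) and ugt-58 (-0.32). The last was the smallest change called here, at 9.60, 9.33 and 9.52 without males and 9.19, 9.25 and 9.06 with males.

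The number of falls leaned on single arrays. Without replicate 1 of glp-1 without males 7 falls were called, and without replicate 2 or replicate 3 of glp-1 with males 10 were called in each case. Over all probe sets 689, 849 and 720 falls were called in these fits, in place of 1386. Called in every alternative run on them were 11 members, namely the falls of ugt-14, ugt-23, ugt-32, ugt-44, ugt-63 and ugt-66 and the rises of ugt-9, ugt-16, ugt-18, ugt-29 and ugt-33.

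**Figure D2:**
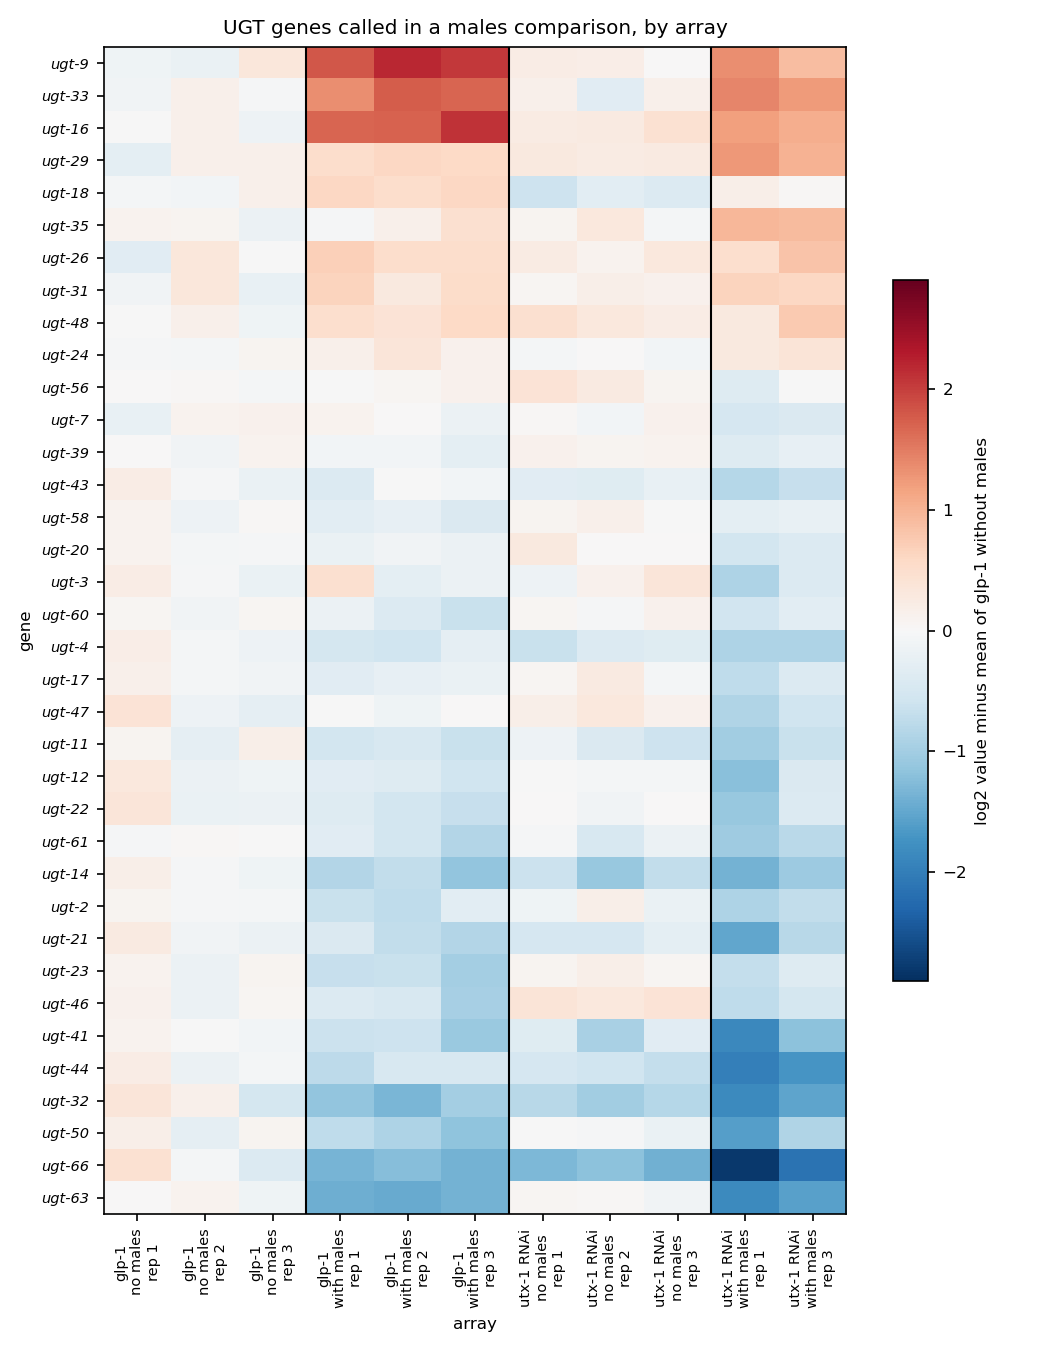
Log2 value of each array minus the gene's mean in glp-1 without males, for the 36 UGT genes called in at least 1 of the males comparisons, ordered by the sum of both differences. Each column is 1 array, and black lines part the groups. The genes at the top (ugt-9, ugt-33, ugt-16) are red in all 5 arrays with males, those at the bottom (ugt-50, ugt-66, ugt-63) are blue there, and ugt-66 is also blue in utx-1 RNAi without males.

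Under utx-1 RNAi the same question was asked with 2 arrays against 3. Here 24 ugt genes fell and 8 rose, which is 50% of the family, against 20.9% of all probe sets. By direction, 37.5% of the family fell against 9.03% of all probe sets, and 12.5% rose against 11.8%. So the share of rises was near that of all probe sets, and the share of falls was above it. Among probe sets above the median signal 32.1% were called, and 29 of the 49 members there. The median difference was -0.26 over the members and -0.03 over all probe sets. All 32 called members were free of overlap between groups. Over the whole family 39 of 64 members were, beside 47.7% of all probe sets. Centring each array on its median took 0.12 off every difference of this comparison, and then 31 falls and 6 rises were called. Over all probe sets the falls then numbered 5553 in place of 2036, and the rises 2012 in place of 2671.

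Again ugt-63 fell the most. It read 8.03, 8.00 and 7.87 in utx-1 RNAi without males and 6.13 and 6.39 with males, so that it fell by 1.70 ± 0.10 (adjusted p = 2.36e-07, limma). The gene ugt-44 read 7.59, 7.5 and 7.40 without males and 6.10 and 6.36 with males, and it fell by 1.26 ± 0.13 (adjusted p = 3.05e-05). For ugt-66 the values were 5.83, 5.93 and 5.75 against 4.34 and 4.99, and the gene fell by 1.17 ± 0.21 (adjusted p = 0.00212). In each of these the groups were separate, and in each replicate 1 with males was the lower of the 2 arrays.

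The gene ugt-50 fell by 1.15 ± 0.20 (adjusted p = 0.00142), ugt-41 fell by 0.99 ± 0.22 (adjusted p = 0.00741) and ugt-46 fell by 0.98 ± 0.15 (adjusted p = 0.000798). For ugt-47 the arrays read 6.39, 6.53 and 6.34 without males and 5.33 and 5.63 with males, and it fell by 0.94 ± 0.16 (adjusted p = 0.00152). Then followed ugt-32 (-0.81), ugt-12 (-0.77), ugt-2 (-0.76), ugt-3 (-0.76) and ugt-21 (-0.74). The other 12 falls lay between -0.71, for ugt-22, and -0.32, for ugt-58. They included ugt-61, ugt-17, ugt-23, ugt-20, ugt-7, ugt-60, ugt-43, ugt-56, ugt-4 and ugt-39.

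The rises were led by ugt-33, at 4.16, 3.70 and 4.17 without males and 5.44 and 5.25 with males. It rose by 1.34 ± 0.16 (adjusted p = 8.68e-05). Both ugt-9 and ugt-16 rose too. The first read 4.41, 4.39 and 4.21 against 5.55 and 5.09 and gained 0.98 ± 0.17 (adjusted p = 0.00168), and the second 3.39, 3.43 and 3.6 against 4.36 and 4.22 and gained 0.82 ± 0.13 (adjusted p = 0.00095). The gene ugt-29 read 7.08, 7.05 and 7.07 without males and 8.06 and 7.81 with males, a rise of 0.87 ± 0.13 (adjusted p = 4.0e-04). Dim in all other arrays, ugt-35 read 2.58, 2.80 and 2.44 without males and 3.45 and 3.41 with them, a rise of 0.82 ± 0.15 (adjusted p = 0.00191). The remaining rises were ugt-18 (0.54), ugt-31 (0.50) and ugt-24 (0.36).

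Replicate 1 of utx-1 RNAi with males carried many of these calls. With that array left out, a single one stood for the group and was taken to vary like the others. Fewer falls and fewer rises were then called, both among the members and over all probe sets. The mean germ line and oocyte marker levels of the 2 arrays were close, at 7.86 and 7.91. Their mean body muscle marker levels lay further apart, at 6.60 and 6.94. Called in every alternative were 13 members, namely the falls of ugt-2, ugt-20, ugt-44, ugt-46, ugt-47, ugt-50, ugt-63 and ugt-66 and the rises of ugt-9, ugt-16, ugt-29, ugt-33 and ugt-35. The germ line and oocyte markers and the muscle markers moved in these same 2 arrays, and their part in the falls and rises of ugt genes was not tested. In the same arrays the intestinal markers had a median difference of 0.05. Among the 12, act-5 (0.44) and asp-1 (0.43) rose and ges-1 (-1.25) fell.

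Both males comparisons share no arrays, so they can be set side by side. Of the 16 members that fell with males without RNAi, 14 also fell under utx-1 RNAi. That is 87.5% of the first list and 58.3% of the 24 in the second. Over all probe sets the corresponding overlap was 55.5% and 37.8%. Of 8 rises in each background 6 were common, 75.0% of either list, against 39.1% and 18.7% over all probe sets. No member was called in opposite directions. Across the 64 genes the differences correlated at r = 0.85 (Spearman's rho 0.80), against 0.38 (rho 0.40) across all probe sets, where genes on the same arrays are not independent. The sign was the same for 55 of 64 members and for 13871 of 22548 probe sets. These 2 sets are not alike, since 49 of the 64 members lay above the median signal. All probe sets also include the germ line and oocyte markers, with medians of -0.04 without RNAi and 4.64 under it. Overlap and correlation were not compared with probe sets of like signal, so whether the agreement is particular to the family was not tested.

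The common falls were ugt-2, ugt-4, ugt-21, ugt-23, ugt-32, ugt-41, ugt-44, ugt-46, ugt-50, ugt-58, ugt-60, ugt-61, ugt-63 and ugt-66. The common rises were ugt-9, ugt-16, ugt-18, ugt-29, ugt-31 and ugt-33. Of these 20 genes, 7 were called in both backgrounds in every alternative: ugt-9, ugt-16, ugt-29, ugt-33, ugt-44, ugt-63 and ugt-66. In all, 36 members were called in at least 1 of these comparisons and 28 in neither.

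**Figure D3:**
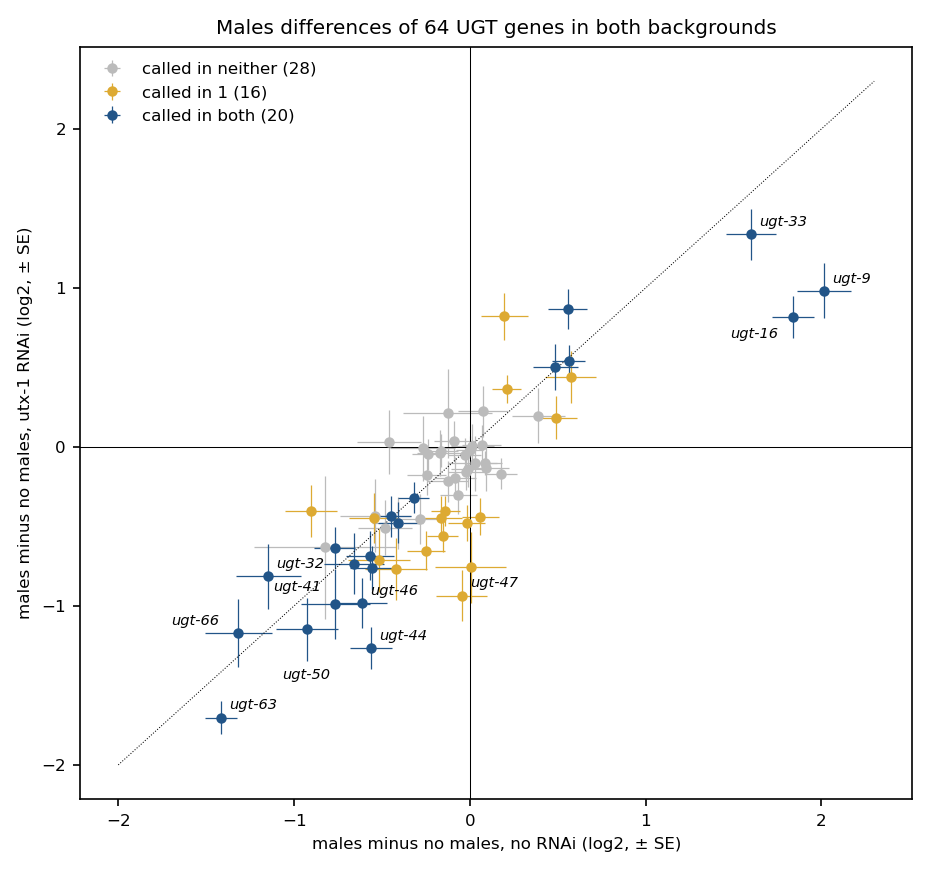
Difference with males minus without males for each of 64 UGT genes, without RNAi (horizontal) and under utx-1 RNAi (vertical), log2, with standard errors; the dotted line marks equal differences. The points run along the line (r = 0.85), with ugt-9 and ugt-16 below it at the right and ugt-44 and ugt-47 below it at the left and centre.

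Whether utx-1 RNAi changed the response of a gene to males was tested by the interaction, the males difference under RNAi minus that without RNAi. It was past the threshold for 4 members, all negative, which is 6.25% of the family against 7.65% of all probe sets. Negative interactions alone made up 1.23% of all probe sets and positive ones 6.42%. For ugt-16 the interaction was -1.02 ± 0.18 (adjusted p = 0.00282, limma), from a rise of 1.84 without RNAi and of 0.82 under it. For ugt-9 it was -1.03 ± 0.23 (adjusted p = 0.0156), from rises of 2.01 and 0.98. The gene ugt-47 had no call without RNAi (-0.05), fell by 0.94 under it, and gave -0.89 ± 0.22 (adjusted p = 0.0263). For ugt-44, differences of -0.56 and -1.26 gave -0.70 ± 0.18 (adjusted p = 0.0325). The level of utx-1 itself differed between the RNAi groups, as given above, and its part in these interactions was not tested.

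Of these, ugt-16 kept its interaction in all 16 alternatives run on it, and ugt-9 in all but one (adjusted p = 0.0753 when replicate 3 of the utx-1 RNAi arrays with males was left out). The interactions of ugt-44 and ugt-47 were each lost in 8 of 16. Their highest adjusted p-values, 0.165 and 0.135, came when replicate 1 of that group was left out. For the 11 members called under RNAi alone other than ugt-47, among them ugt-12, ugt-17, ugt-20 and ugt-35, the interaction did not pass. So the data do not show that they differed between backgrounds, nor do they for ugt-11, ugt-14, ugt-26 and ugt-48, called without RNAi alone.

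**Figure D4:**
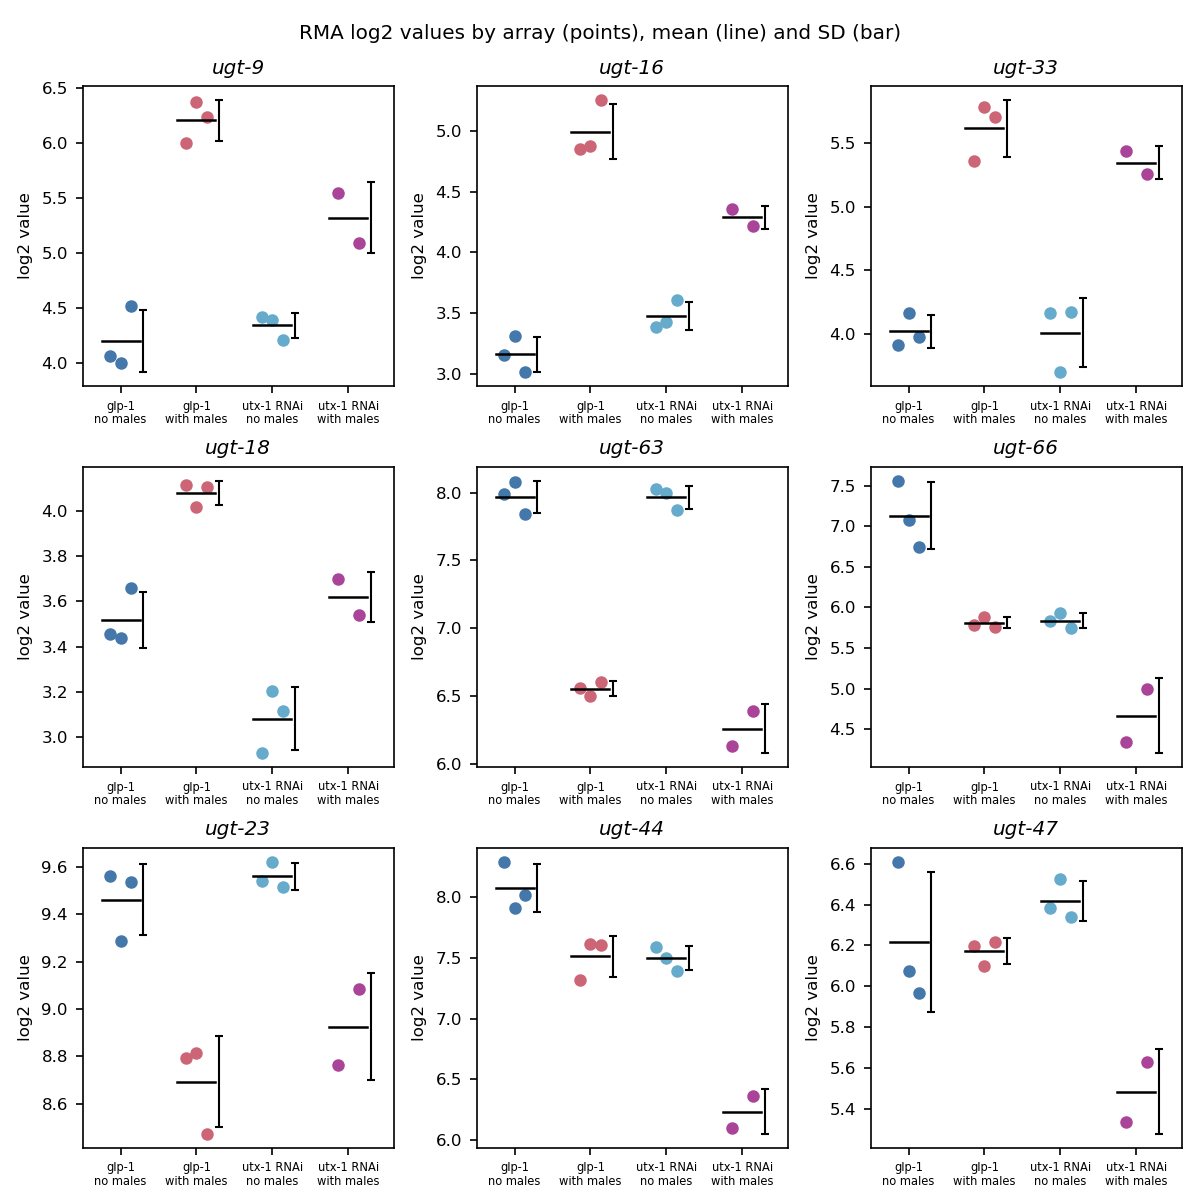
Log2 values of 9 UGT genes in each array (points, by group), with the group mean (line) and standard deviation (bar); vertical axes differ between panels. With males, ugt-9, ugt-16, ugt-33 and ugt-18 are higher and ugt-63 and ugt-23 lower in both backgrounds, ugt-66 is lower with males and with RNAi, and ugt-44 and ugt-47 are lowest in utx-1 RNAi with males.

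RNAi against utx-1 without males called 1 member. The gene ugt-66 read 7.56, 7.08 and 6.74 in glp-1 and 5.83, 5.93 and 5.75 under RNAi, and it fell by 1.29 ± 0.19 (adjusted p = 0.0308, limma). It is 1.56% of the family, against 0.164% of all probe sets, which is 37 probe sets in all. Falls were 0.129% and rises 0.0355% of all probe sets. The groups of ugt-66 did not overlap, as for 24 of 64 members and 22.2% of all probe sets. Its call was lost in 7 of 17 alternatives, with a highest adjusted p of 0.112 when replicate 2 of the RNAi group was left out. At an unadjusted p under 0.05 stood 25 members, 18 of them lower, where 17.0% of all probe sets did. The nearest to the threshold were ugt-14 at -0.81 (adjusted p = 0.0538), ugt-8 at -0.92 (adjusted p = 0.0659), ugt-44 at -0.58 (adjusted p = 0.0687) and ugt-32 at -0.87 (adjusted p = 0.0722). For ugt-8 the arrays read 6.82, 6.83 and 6.86 without RNAi and 6.22, 5.49 and 6.02 with it, so the spread lay on the side of the RNAi group.

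With males present, utx-1 RNAi went with 12 falls and 2 rises, 21.9% of the family against 14% of all probe sets. None of these 14 overlapped between groups. Over the whole family 29 of 64 members did not overlap, beside 45.3% of all probe sets. Falls were 18.8% against 5.07% and rises 3.12% against 8.96%. The gene ugt-44 fell by 1.28 ± 0.13 (adjusted p = 3.02e-05, limma) and ugt-66 fell by 1.14 ± 0.21 (adjusted p = 0.00323). The gene ugt-9 fell by 0.89 ± 0.17 (adjusted p = 0.00428) and ugt-16 fell by 0.71 ± 0.13 (adjusted p = 0.00324). Both thus stood lower under RNAi in the presence of males, at 5.55 and 5.09 against 6.01, 6.38 and 6.24 for ugt-9. The others were ugt-41 (-0.76), ugt-5 (-0.76), ugt-47 (-0.69), ugt-36 (-0.63), ugt-43 (-0.58), ugt-18 (-0.46), ugt-4 (-0.45) and ugt-7 (-0.44).

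Higher under RNAi with males were ugt-35, by 0.74 ± 0.15 (adjusted p = 0.00507), and ugt-29, by 0.57 ± 0.13 (adjusted p = 0.00934). When replicate 1 of the RNAi group was left out, a single array stood for that group. Fewer falls and fewer rises were then called, both among the members and over all probe sets. The calls of ugt-9, ugt-16, ugt-35 and ugt-44 held in every alternative. This comparison uses the same pair of arrays in which germ line and oocyte markers were high (median difference 4.30, 13 of 13 higher) and body muscle markers low (6 of 6 lower). Neither utx-1 RNAi comparison can tell knockdown of utx-1 apart from RNAi treatment as such.

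The gene ugt-66 thus read lower both with males and with RNAi. Its group means were 7.13 ± 0.41 (SD, n = 3) in glp-1 without males, 5.81 ± 0.07 with males, 5.84 ± 0.09 under RNAi and 4.67 ± 0.46 (SD, n = 2) with both. The interaction was 0.15 and did not pass.

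Only 3 members had more than 1 probe set. The additional probe set of ugt-46 differed by -0.43 with males without RNAi and by -0.69 under RNAi, both called, beside -0.61 and -0.98 at the one used. That of ugt-48 gave 0.54 and 0.22, beside 0.49 and 0.18, with a call without RNAi for each. The probe sets of ugt-50 disagreed. At the one used it fell by 0.93 and 1.15, at the second the differences were -0.01 and -0.41 without a call, and at the dimmest -0.24, without a call, and -0.61, with one. The falls of ugt-50 therefore hold for 1 of 3 probe sets without RNAi. Of the 64 probe sets used, 12 are of the kind that can bind transcripts of related genes, among them those of ugt-12, ugt-29, ugt-46 and ugt-58.

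Many members lie next to one another. In the RefSeq order of protein-coding genes 37 ugt genes form 12 runs of at least 2, with at most 1 other gene between neighbours, and 36 of them were measured. Within runs 6 of 36 members fell and 4 rose with males without RNAi, and outside them 10 of 28 fell and 4 rose. Under RNAi the counts were 12 and 4 of 36 within runs and 12 and 4 of 28 outside.

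Neighbours did not always move together. The longest run, in the order ugt-12, ugt-11, ugt-9, ugt-10, ugt-67, ugt-8, ugt-14 and ugt-13, was the one run with calls in both directions. In it ugt-9 rose by 2.01 without RNAi while its neighbour ugt-11 fell by 0.55 and ugt-14 fell by 0.90. On the other side of ugt-9, ugt-10 was dim and had a difference of 0.18. The run of ugt-18, ugt-16 and ugt-15 held 2 rises in both backgrounds, of 0.56 and 1.84 without RNAi. The third gene, ugt-15, was dim, at 2.52 to 3.02 in all arrays. In the run of ugt-26, ugt-27, ugt-28 and ugt-25, ugt-26 rose by 0.57 and the other 3 had negative values without a call (-0.82, -0.13 and -0.27). Transcripts of close neighbours can be alike in sequence, and cross-binding of their probes was not tested.

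**Figure D5:**
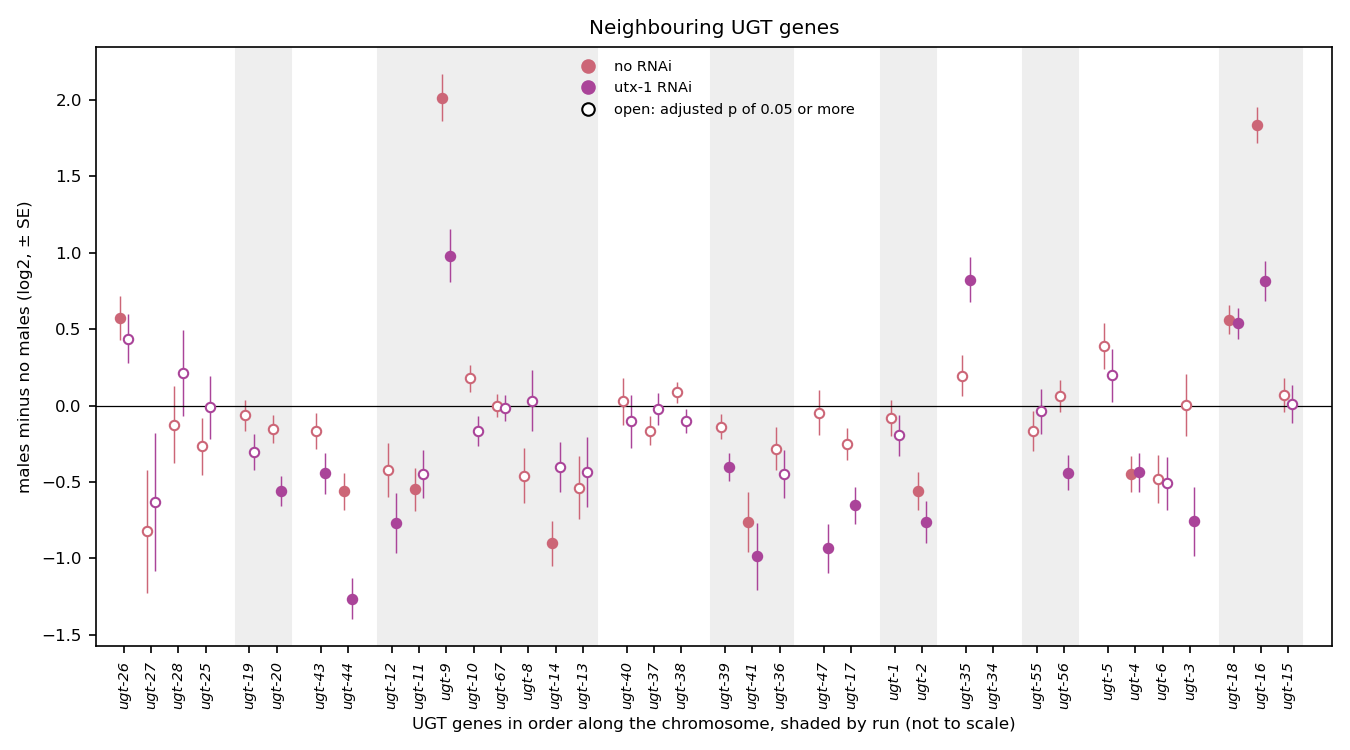
Difference with males minus without males (log2, with standard errors) for UGT genes that lie next to one another, in their order along the chromosome and shaded by run; filled points passed an adjusted p of 0.05. In the run of 8 genes ugt-9 is high in both backgrounds beside lower neighbours, and in the run at the right ugt-18 and ugt-16 are high while ugt-15 is at 0.

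A total of 26 members were called in none of the 5 comparisons. Of these, 12 lay below the median signal, such as ugt-67, whose arrays spanned 0.26 in all, and ugt-38, which spanned 0.30. Others were bright: ugt-25 spanned 1.25 and ugt-62 1.18 without a call. The widest was ugt-27, at 5.09, 4.99 and 6.08 in glp-1 without males and 4.93, 4.95 and 3.81 with males, so that the spread between replicates was as large as the difference.

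Genes that act before and after the transferases were followed as lists, and whether these differ from the ugt genes was not tested. Of all probe sets 11.8% were called with males without RNAi and 20.9% under utx-1 RNAi. Of 6 genes for UDP-sugar supply, transport or use, nstp-4 fell with males without RNAi, by 0.28 ± 0.08 (adjusted p = 0.0494), and none rose. The median over the 6 was -0.13, beside -0.15 over the ugt genes. The UDP-glucose dehydrogenase gene sqv-4, which makes UDP-glucuronic acid, had a difference of 0.01. Under utx-1 RNAi sqv-4 rose with males by 0.72 ± 0.14 (adjusted p = 0.00317) and sqv-7, a nucleotide sugar transporter gene, by 0.64 ± 0.12 (adjusted p = 0.00259). Both were higher in the 2 arrays with high germ line and oocyte markers, whose part in this was not tested.

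Of 21 ABC transporter genes of the mrp and pgp families, which export conjugates and foreign compounds, 2 rose and 2 fell with males without RNAi, where 11.8% of all probe sets were called. The called genes were mrp-2 (0.49), pgp-1 (0.49), mrp-3 (-0.56) and mrp-4 (-0.56). Under RNAi 2 rose and 4 fell, where 20.9% of all probe sets were called. There mrp-3 fell again, by 0.72, while mrp-4 rose by 1.47 ± 0.13 (adjusted p = 4.85e-06, limma). The interaction of mrp-4, at 2.04 ± 0.17, passed (adjusted p = 1.02e-05, limma). With utx-1 RNAi mrp-4 differed by 2.00 with males and by -0.04 without them. It was thus high in the 2 arrays with high germ line and oocyte markers, whose part in this was not tested. The median over the 21 genes was -0.11 and -0.12.

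Among 15 regulators of xenobiotic and stress responses, the nuclear receptor gene nhr-8 fell with males in both backgrounds, by 0.45 ± 0.08 (adjusted p = 0.00582) without RNAi, and fell by 0.40 ± 0.09 (adjusted p = 0.00903). The gene skn-1, whose product induces detoxification genes, rose without RNAi by 0.54 ± 0.12 (adjusted p = 0.016), and pqm-1 rose under RNAi by 0.38 ± 0.10 (adjusted p = 0.0171). No other regulator passed in these comparisons, and their medians were -0.04 and -0.03. Of all probe sets 11.8% were called without RNAi and 20.9% under it.

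The other large enzyme families of the pathway also had more falls than rises with males. Of 73 cytochrome P450 genes 15 fell and 5 rose without RNAi, with a median of -0.12, and 21 fell and 6 rose under RNAi. Of 45 glutathione S-transferase genes 9 fell and 4 rose, with a median of -0.02, and 11 fell and 2 rose under RNAi. Examples without RNAi are cyp-25A1 (-1.28), cyp-32B1 (-1.13), gst-26 (-0.72) and gstk-2 (0.90). Called without RNAi were thus 20 of 73 and 13 of 45, beside 24 of 64 ugt genes and 11.8% of all probe sets. Under RNAi 20.9% of all probe sets were called. Whether the families differ was not tested.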

How the data were processed

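RNA of whole worms was measured on 11 one-colour Affymetrix C. elegans arrays. Each probe set has a log2 value that the authors deposited and, per the submitters' processing notes, computed by RMA, with version and settings not given in the sources used here. RMA compresses changes of dim probe sets. The 77 control probe sets were left out of 22625. Of the remaining 22548, 20766 had 1 gene symbol in the platform annotation, 887 several and 895 none. Symbols of 20701 were updated through the RefSeq table of WBcel235, used for names and gene order only, and no ugt symbol changed. A probe set with several symbols was given no name.

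Groups follow the titles. The replicate numbers of 2 utx-1 RNAi arrays (replicate 2 without males, replicate 3 with males) differ in the description. A mean per group was fitted by the functions lmFit, contrasts.fit and eBayes (limma 3.58.1 under R 4.3.3), with 7 residual and 4.84 prior degrees of freedom, and was tested on simulated data. Precision is limited by the number of arrays.

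The naming rule covers, per comparison, up to 12 rises and 12 falls past an adjusted p of 0.05, the brightest 8 and dimmest 4 members, interactions past the threshold and members with disagreeing probe sets, and up to 3 genes by p-value from each pathway list. Others named in counts were chosen after their values were seen. Members and lists were chosen with earlier results of these data known. Alternatives were a trended and robust prior, centred arrays, quantile normalization, a filter on dim probe sets, only the groups compared, a replicate block, the dimmest probe set of a gene, platform symbols, an added fold limit of 0.5 and leaving out each array.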

Additional observations from a re-analysis of the deposited data

Results flagged for a closer look

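The males difference differed between backgrounds, by a test of the difference itself, for 4 ugt genes. The males difference under utx-1 RNAi minus that without RNAi was -1.03 for ugt-9, -1.02 for ugt-16, -0.89 for ugt-47 and -0.70 for ugt-44 (adjusted p = 0.0156, 0.00282, 0.0263 and 0.0325, limma). For ugt-9 and ugt-16 all arrays with males were above all arrays without in both backgrounds, and the rise was smaller under RNAi. For ugt-44 and ugt-47 the arrays of utx-1 RNAi with males were the lowest of all 11. Germ line and oocyte markers rose in these same 2 arrays, and utx-1 was higher in them than in utx-1 RNAi without males (by 3.28 and 0.32 at its 2 probe sets). The part of either in the 4 interactions was not tested.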

How the results depend on the processing

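Over 17 or 18 alternatives each (16 for ugt-35 and for the interaction), none of the called differences of a member changed direction. With males without RNAi 11 of 24 calls held in every alternative, under utx-1 RNAi 13 of 32, with utx-1 RNAi without males 0 of 1, with utx-1 RNAi and males 4 of 14, and 1 of 4 in the interaction. By the replicate numbers of the titles, same-numbered arrays deviated from their group means with r from -0.352 to 0.051 (median -0.2). For arrays with different numbers r ran from -0.241 to 0.352 (median 0.091). Same-numbered arrays thus gave no sign of moving together, which does not show that the arrays were unpaired. The 2 arrays of utx-1 RNAi with males deviate as mirror images, so their r values are not independent. Pairing by the numbers in the descriptions was not checked, and the replicate block is not read as a paired analysis. With the replicate block 10 members fell with males without RNAi in place of 16, 0 with utx-1 RNAi without males in place of 1, and 2 in place of 4 had negative interactions. Over all probe sets the same counts were 763 in place of 1386, 3 in place of 29 and 112 in place of 277. The block moved no other count of members by over 1.5 times. Centring arrays on their medians gave 8 negative interactions in place of 4, and 1185 in place of 277 over all probe sets. The trended and robust prior gave 4 falls with utx-1 RNAi without males in place of 1, and 70 in place of 29 over all probe sets. The filter on dim probe sets, which removed ugt-35, gave 1 rise with utx-1 RNAi and males in place of 2.

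Leaving out each array in turn gave 5 to 8 rises and 7 to 20 falls with males without RNAi, and 5 to 9 rises and 8 to 26 falls under RNAi. With utx-1 RNAi it gave 0 rises and 0 to 2 falls without males, and 1 to 2 rises and 4 to 16 falls with males. Positive interactions numbered 0 to 1 and negative ones 2 to 5. A fit of only the groups compared was not run for the interaction, which needs all 4 groups. RMA values carry no detection calls, so how many dim members were above background cannot be said.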

Other observations

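Within groups, the members did not scatter alike on every array. In glp-1 without males, replicate 1 was the lowest of its group for 9 of 64 members, replicate 2 for 30 and replicate 3 for 25, where over all probe sets each was lowest for 34.9%, 37.0% and 28.0%. In glp-1 with males, replicate 3 was the lowest for 30 of 64, and for 28 of the 49 members above the median signal, where it was lowest for 43.2% of all such probe sets. In utx-1 RNAi without males, replicate 2 was the lowest for 25 of those 49, against 27.8% of such probe sets.

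The neighbours ugt-25, ugt-27 and ugt-28 are examples chosen after their values were seen. In replicate 2 of utx-1 RNAi without males ugt-25 read 8.29, against 8.84 and 9.07 in the other arrays of its group, and ugt-27 read 3.85 against 5.03 and 4.95. In replicate 3 of glp-1 with males ugt-27 read 3.81 against 4.93 and 4.95, and ugt-25 read 8.83 against 9.18 and 9.35. The probe set of ugt-28 read 5.81 and 6.33 in the same 2 arrays, each the lowest of its group.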
